A study of Mus musculus with 6 samples.

Results

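A group of 10 mouse genes was examined that lie at, or nearest to, a site where a Bapx1 peak and a Sox9 peak of the embryonic vertebral column share bases at the deposited coordinates. The genes are Ppp1r9a, Lep, Lrp5, Mest, Slc25a13, Limch1, Papss2, Lrig3, Iyd and Armc5, out of 37310 genes in the annotation. They were chosen by the peaks, so the tags that made those peaks describe the choice and are given without a test. Of 2815 Bapx1 peaks and 3722 Sox9 peaks, 13 Bapx1 peaks overlapped a Sox9 peak by at least 1 bp, a share of 0.462%, and 10 of the 13 belong to these genes.

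Chromatin immunoprecipitation followed by sequencing (ChIP-seq) was available for 6 libraries, 1 per condition. The embryo libraries came from CD1 mice at E12.5. Bapx1 was pulled down through an S-peptide tag on the endogenous protein, and its control used the same S-peptide antibody on wildtype vertebral column. Sox9 was pulled down with its own antibody from wildtype embryos, with IgG as control. The labels give the tissue of this pair once as vertebral column and once as vertebral column with limb. In NIH3T3, a mouse fibroblast line, V5-tagged Bapx1 was overexpressed and its control was pulled down with the same V5 antibody, from cells described both as transfected with an empty pcDNA6 vector and as wild type. Many embryos were pooled for the Bapx1 library and for its control, so no spread between animals can be given. The libraries held between 9124697 and 24855032 tags, each the position of a mapped read. With 1 library per condition no comparison between conditions could be tested, and the 95% intervals given are exact binomial (Clopper-Pearson) and cover counting error only.

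Bapx1 (also named Nkx3-2) is a homeodomain transcription factor needed to build the vertebral bodies, and Sox9 is the HMG-box transcription factor on which cartilage formation depends. Homeodomain proteins of the NK family bind a short core ending in AAGTG, whereas Sox proteins bind an AT-rich core in the minor groove. In the axial skeleton both factors act in the sclerotome, the part of the somite that forms the vertebrae, and a site that holds both in a pulled-down population need not hold them in the same cell.

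The median distance of the Bapx1 summit from the nearest transcription start site (TSS) was 19078 bp, beside 19319 bp over all embryo Bapx1 peaks. Within 2 kb of a TSS, a limit set after the values were seen, lay 4 of the 10, beside 20.2% of all embryo Bapx1 peaks. They were Lep, Mest, Slc25a13 and Armc5. For Lep, Mest and Slc25a13 this TSS is that of another transcript, which starts inside the gene. Their summits lay 6378, 7158 and 25473 bp from the start of the annotated gene, and that of Armc5 lay 553 bp from it. The site of Ppp1r9a, chr6:4932625-4932945 (mm9), was intronic and 79362 bp from the nearest TSS. The sites of Lep, chr6:29016234-29016738, and Lrp5, chr19:3641783-3642264, were intronic as well, at 1136 and 44482 bp from a TSS. Intronic positions were also found for Mest, chr6:30680623-30680903, Slc25a13, chr6:6141837-6141869, and Limch1, chr5:67334844-67334921, whose nearest TSSs lay at 1263, 905 and 24737 bp. The sites of Papss2, chr19:32680884-32681108, Lrig3, chr10:125247983-125248038, and Iyd, chr10:6729885-6729959, were intergenic, at 13419, 155416 and 76389 bp. The Lrig3 site is thus beyond 100 kb of the gene it is nearest to. The site of Armc5, chr7:135381352-135381718, covered coding and untranslated exon sequence of Armc5 and an exon of 9130023H24Rik, which starts 121 bp from the Bapx1 summit on the opposite strand. Chromosome 6 held 4 of the 10, beside 5.75% of all embryo Bapx1 peaks.

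The sequences of the Bapx1 summits show which sites carry the Bapx1 motif. The motif searched was TAAGTG or TGAGTG on either strand. It occurred within 50 bp of the summit at 4 of the 10 members, beside 31.3% of all embryo Bapx1 peaks and 10.5% of windows of the same length 500 bp to either side. The 4 are shown as 121 bp of the plus strand of mm9 around the Bapx1 summit, with the motif in capitals, together with Armc5, whose match lies just outside 50 bp.
Ppp1r9a, chr6:4932734-4932854: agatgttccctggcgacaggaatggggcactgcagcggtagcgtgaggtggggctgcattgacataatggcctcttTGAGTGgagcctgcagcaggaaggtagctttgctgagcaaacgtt
Lrp5, chr19:3642022-3642142: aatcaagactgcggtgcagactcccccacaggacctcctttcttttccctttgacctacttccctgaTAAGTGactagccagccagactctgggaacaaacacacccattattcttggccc
Limch1, chr5:67334858-67334978: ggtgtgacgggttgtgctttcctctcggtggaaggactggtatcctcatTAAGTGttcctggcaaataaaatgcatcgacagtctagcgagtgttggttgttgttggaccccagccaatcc
Papss2, chr19:32681016-32681136: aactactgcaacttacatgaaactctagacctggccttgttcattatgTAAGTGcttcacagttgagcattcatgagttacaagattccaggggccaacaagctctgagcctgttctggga
Armc5, chr7:135381364-135381484: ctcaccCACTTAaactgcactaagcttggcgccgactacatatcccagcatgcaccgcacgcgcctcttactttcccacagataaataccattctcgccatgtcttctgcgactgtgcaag

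The match in Ppp1r9a was the TGAGTG form and its centre lay 19 bp from the summit. The other three within 50 bp were TAAGTG, at 10 bp in Lrp5, 8 bp in Limch1 and 9 bp in Papss2. The TAAGTG form alone was found at 3 of the 10 members, beside 15.3% of all embryo Bapx1 peaks and 4.09% of the flanking windows. Within 100 bp of the summit, 5 members held the motif, beside 44.3% of all Bapx1 peaks and 20.1% of the flanking windows. Lep, Mest, Slc25a13, Lrig3 and Iyd had no match in that window.

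The Sox9 motif was taken as 2 bases that are each A or T, then CAA, then A or T, then G, on either strand. None of the 10 members held it within 50 or 100 bp of the Bapx1 summit, where 10.5% and 19.7% of all embryo Bapx1 peaks did, below the 13.2% and 24.8% of their flanking windows. At the Sox9 summits sequence was read at 6 members, Ppp1r9a, Lep, Lrp5, Mest, Slc25a13 and Iyd, where the Sox9 positions were read as in register with those of Bapx1. Iyd was the member with a match there, AACAAAG at 28 bp from the summit, and is shown around its Sox9 summit with the match in capitals.
Iyd, chr10:6729985-6730105: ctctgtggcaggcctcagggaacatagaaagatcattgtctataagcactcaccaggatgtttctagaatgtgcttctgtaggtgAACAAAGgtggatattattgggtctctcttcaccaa
This 1 of 6 stands beside 35.7% of the 143 Sox9 peaks in windows without displacement and 11.9% of their flanks. The displacement around Mest was unclear, so Mest is not in that class of windows. Within 100 bp the count was again 1 of 6, beside 44.1% and 21%. Lep held a match, CTTTGAT, in the bases shared by both peaks, at 291 bp from its Bapx1 summit.

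In the authors' lists, ranked by p, the Bapx1 peaks of these sites stood at ranks 225 to 2725 of 2815. Their Bapx1 peaks held 12 to 40 tags with a median of 23, beside a median of 20 over the list. The false discovery rate, which MACS estimates by swapping the ChIP and the control library, was 42.2% to 71.0% for these Bapx1 peaks, beside a median of 61.1% over the list. The Sox9 peaks held 10 to 62 tags with a median of 35.5, beside 18 over the list, and their false discovery rate ran from 1.46% at Papss2 to 100% at Iyd. By p the strongest Bapx1 peak among them was that of Ppp1r9a, while that of Lrp5, with 40, held the most tags.

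The shared bases ranged from 33 bp in Slc25a13 to 505 bp in Lep. The shortest overlaps were those of Slc25a13, Lrig3 with 56 bp, Iyd with 75 bp and Limch1 with 78 bp. Just outside the rule, the nearest pairs that shared no base were separated by 55, 86 and 138 bp at the deposited coordinates. The positions of the Sox9 pair were then compared with those of the Bapx1 pair at each site, because the labels name mm9 for all libraries while the tag patterns of the Sox9 and IgG libraries are displaced from those of the other embryo libraries over most of the genome. The displacement was taken as the shift that best matched the tags of both pairs in 500 kb around the site, and it was called clear where this match was at least 1.5 times the best match elsewhere. With shifts of up to 10000 kb, the windows of the pairs 86 and 138 bp apart were displaced, by −54050 and −112300 bp. That of the pair 55 bp apart was unclear, so none of these gaps was measured in register.

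Of the 2815 windows around Bapx1 peaks, 112 showed no displacement, 2632 were displaced and 71 were unclear, with shifts of up to 10000 kb. In windows without displacement 7 of 112 Bapx1 peaks overlapped a Sox9 peak, 6.25% (95% interval 2.55 to 12.5). In displaced windows 5 of 2632 did, 0.19% (0.0617 to 0.443). Ppp1r9a, Lep, Lrp5, Slc25a13 and Iyd were in windows without displacement, and remained so with windows of 200 and 1000 kb, with the controls alone, and with tags under peaks left out. In the 500 kb that end at its interval Lrp5 was unclear. Limch1, Papss2, Lrig3 and Armc5 were in displaced windows, and the window of Mest was unclear. Chromosome 6, with Ppp1r9a, Slc25a13, Lep and Mest, held 20 of the 112 windows without displacement.

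When each Bapx1 peak was moved by the displacement of its own window, 246 of 2744 peaks in clear windows overlapped a Sox9 peak, 8.97% (7.92 to 10.1). In displaced windows the share was 9.08% after the move. The members that overlapped a Sox9 peak after the move were Ppp1r9a, Lep, Lrp5, Slc25a13, Papss2 and Iyd. All of these but Papss2 were in windows without displacement and kept their position, so their overlap is the one that the rule used. Among the members in displaced windows Papss2 alone overlapped. Limch1, Lrig3 and Armc5 did not, and Mest was not counted because its window was unclear.

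**Figure D1:**
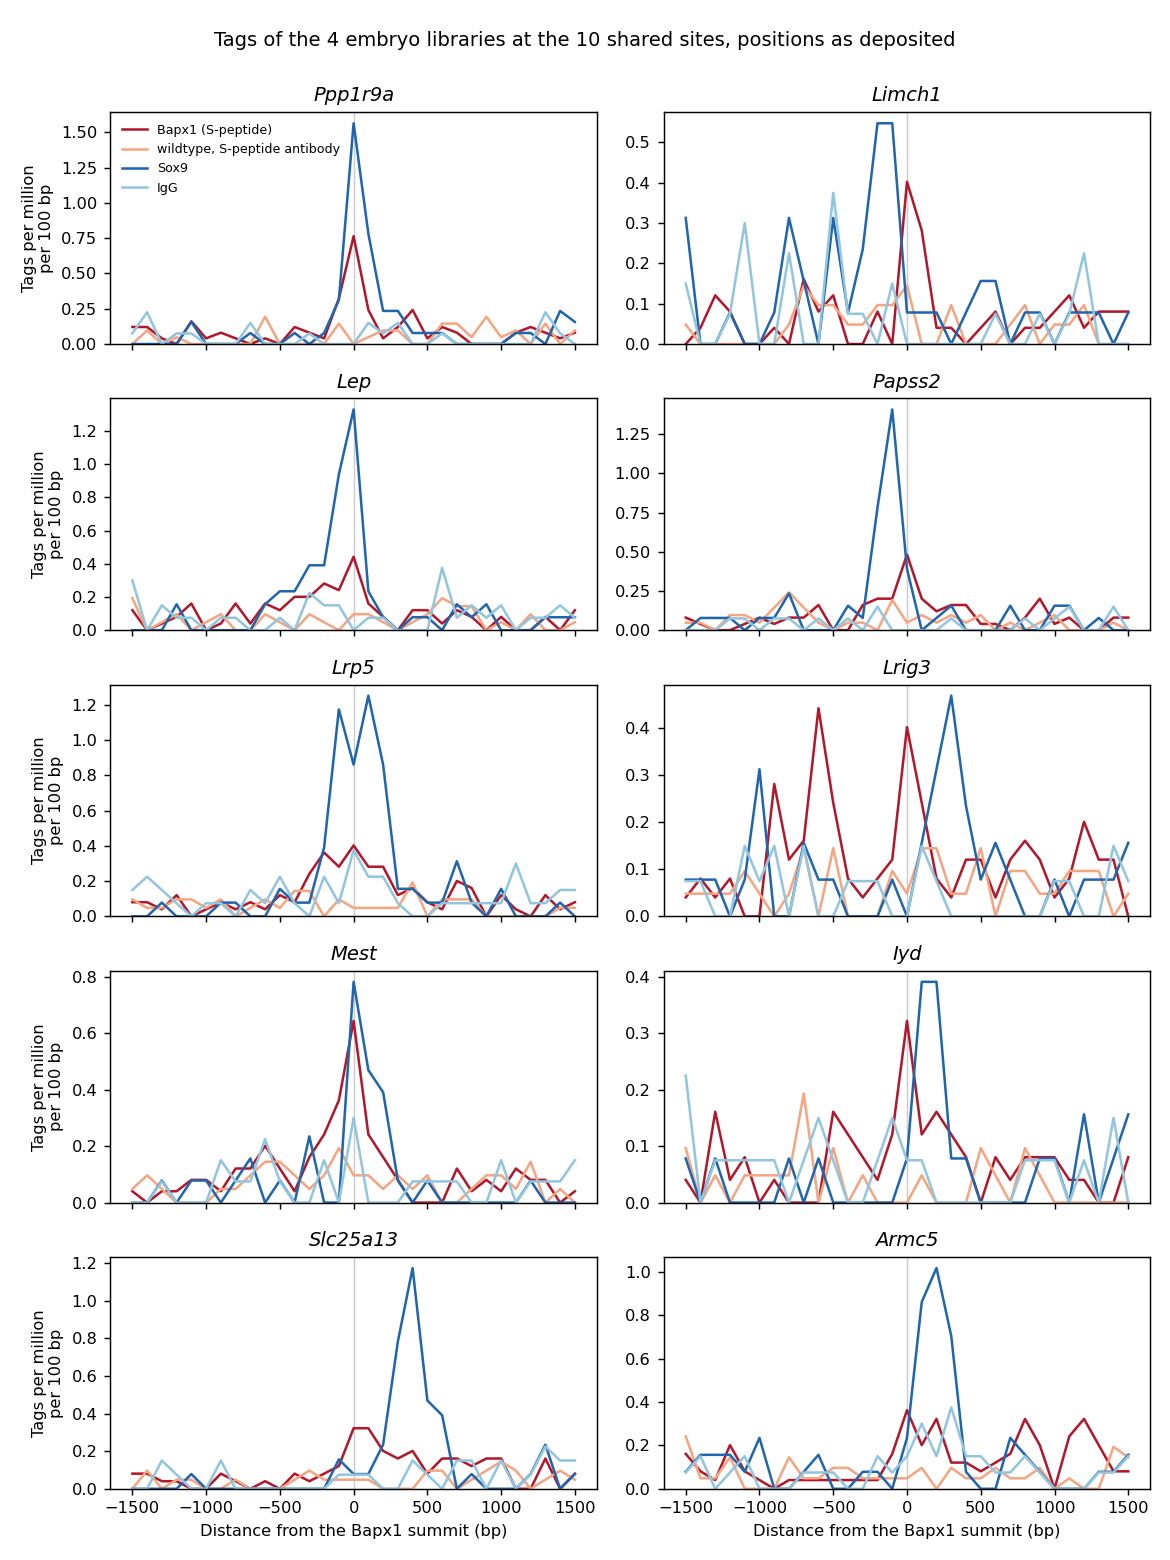
Tags in 100-bp bins, scaled to the size of each library (y axis) against the distance from the Bapx1 summit in bp (x axis) at the 10 sites, with positions as deposited. Red lines are Bapx1, orange lines its wildtype S-peptide control, blue lines Sox9 and light blue lines IgG, 1 library each, with 5′ ends moved by 38 bp in the Bapx1 pair and 43 bp in the Sox9 pair. Bapx1 and Sox9 rise at the same place in Ppp1r9a, Lep, Lrp5 and Mest, and side by side in Slc25a13, Limch1, Lrig3 and Iyd. The windows of Limch1, Papss2, Lrig3 and Armc5 were displaced, so at these sites the deposited Sox9 and IgG lines are not in register with the Bapx1 lines.

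Ppp1r9a encodes neurabin, a scaffold that brings protein phosphatase 1 to actin. In its shared interval 33 Bapx1 tags stood against 5 of the wildtype control, a ratio of 5.50 after scaling to library size (2.13 to 18.0). The Sox9 library held 33 tags there and IgG 2, a ratio of 17.2 (4.40 to 148). Both summits lay 24 bp apart. The strand structure of the Bapx1 and Sox9 tags was alike here, with minus-strand 5′ ends at a median of 94.5 and 93.5 bp downstream of the plus-strand ends. Among the other sites read in register, these distances were 139.5 and 120 bp in Lep, 35.5 and 57.5 bp in Lrp5, and 156.5 and 147 bp in Mest. They were less alike in Slc25a13, at 115 and −182.5 bp, and in Iyd, at 42 and 187.5 bp. The Sox9 values there rest on few tags, 10 plus and 2 minus in Slc25a13, and 8 plus and 3 minus in Iyd. Tags were read within 300 bp of the Bapx1 summit, and the Sox9 summit of Slc25a13, at 358 bp, lies outside. In NIH3T3 the interval of Ppp1r9a held 4 V5-Bapx1 tags and 2 control tags, a ratio of 2.80 whose interval (0.401 to 30.9) spans 1.

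Lep encodes leptin, the hormone of fat cells that signals energy stores. Its interval held 35 Bapx1 tags against 6, a ratio of 4.86 (2.02 to 14.1), and 41 Sox9 tags against 8, a ratio of 5.34 (2.47 to 13.2). The Sox9 summit was 55 bp from the Bapx1 summit. The NIH3T3 libraries held 5 tags each.

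Lrp5 encodes a co-receptor for Wnt ligands that regulates bone mass. Its interval held 43 Bapx1 tags against 6, a ratio of 5.97 (2.53 to 17.2). The Sox9 library held 51 tags and IgG 15, a ratio of 3.55 (1.96 to 6.79), and this IgG count was the highest of the 10 intervals. The summits were 72 bp apart. In NIH3T3, 4 tags stood against 3. A further Sox9 peak lay in Lrp5 at chr19:3669139-3669546, with 52 tags and a false discovery rate of 1.06%, and no further Bapx1 peak was listed within 100 kb of the gene.

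Mest is an imprinted gene, expressed from the paternal allele in mesoderm, and encodes a hydrolase-like protein. Its interval held 27 Bapx1 tags against 7, a ratio of 3.21 (1.37 to 8.74), and 17 Sox9 tags against 4, a ratio of 4.43 (1.45 to 18.1). The summits were 1 bp apart as deposited. In NIH3T3 both libraries held 1 tag. The register of the Sox9 pair changed close to this site. In the 500 kb that end at it the best match was a shift of 50 bp, and in the 500 kb that begin at it the best match was −19850 bp, both clear. In windows of 20 kb the match at the site itself was a shift of 50 bp, and the shift was −19000 bp at 80 kb to the right, beyond a stretch without tags. The Mest site therefore sat on the side of the step where the pairs were in register.

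**Figure D2:**
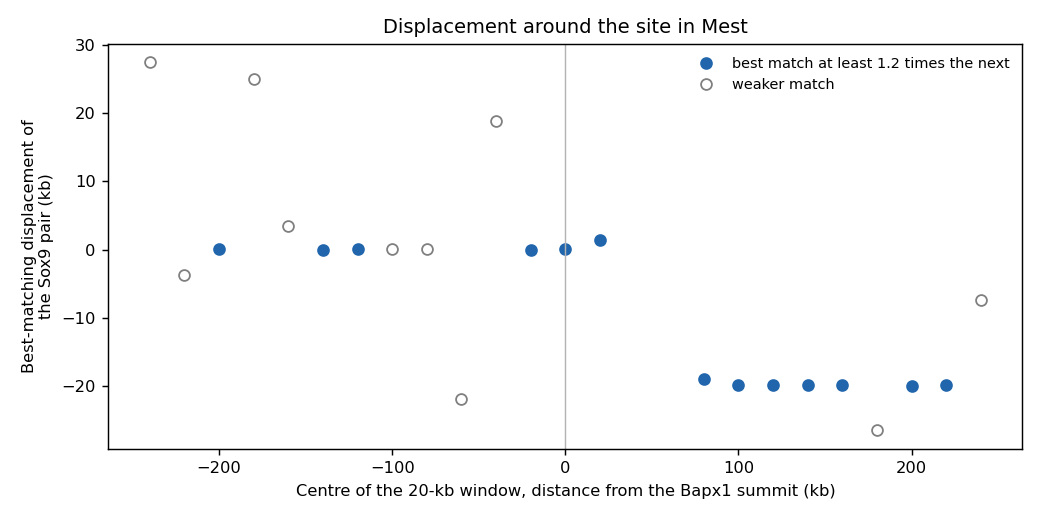
Best-matching displacement of the Sox9 pair in kb (y axis) in 20-kb windows, plotted by the distance of the window's centre from the Bapx1 summit in Mest in kb (x axis). Filled points are windows whose best match was at least 1.2 times the next and open points are weaker matches. The filled points lie within 50 bp of 0 up to the site, at 1450 bp in the window 20 kb to its right, and between −19900 and −19000 bp from 80 kb onwards.

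Slc25a13 encodes citrin, a carrier that exchanges aspartate and glutamate across the inner mitochondrial membrane. Its 33 shared bases held 1 Bapx1 tag and no tag of the control, and no Sox9 tag against 1 of IgG, so no ratio was formed there. The 2 peaks met at their edges, with summits 358 bp apart. Within 200 bp of the Bapx1 summit Bapx1 held 23 tags against 4, a ratio of 4.79 (1.64 to 19.1), whereas Sox9 held 4 against 3. Within 200 bp of the Sox9 summit Sox9 held 37 tags against 4, a ratio of 9.64 (3.46 to 37.3). Bapx1 held 17 against 2 in that window, a ratio of 7.08 (1.68 to 63.2). Bapx1 tags were found around both summits, and most of the Sox9 tags around the Sox9 summit.

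Iyd encodes the enzyme that removes iodine from iodotyrosines in the thyroid. Its 75 shared bases held 6 Bapx1 tags and no control tag, at least 1.67-fold higher against a floor of 3 counts, and 1 tag each of Sox9 and IgG. This Bapx1 bound depended on the placement of the tags. With 5′ ends moved by 38 bp, or tags counted at their middle, the Bapx1 and control counts were too low for a ratio. Within 200 bp of the Bapx1 summit the counts were 15 against 2 for Bapx1, a ratio of 6.25 (1.45 to 56.3), and 9 against 4 for Sox9, a ratio of 2.35 (0.655 to 10.4). Around the Sox9 summit, 181 bp away, Sox9 held 13 against 1, a ratio of 13.6 (2.04 to 576), and Bapx1 held 20 against 1, a ratio of 16.7 (2.66 to 690). The windows around both summits share bases. With 5′ ends moved by 38 bp in place of 100 bp, the Bapx1 ratio around its own summit was 12.5. In the whole Bapx1 peak Sox9 held 1 tag against 4, a ratio of 0.261 (0.00529 to 2.63). By tags these were the weakest peaks of the group, with 12 Bapx1 tags and 10 Sox9 tags in the authors' lists.

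Papss2 encodes an enzyme that makes the sulfate donor with which cartilage proteoglycans are sulfated. Its shared interval held 16 Bapx1 tags against 5, a ratio of 2.67 (0.933 to 9.30), and at the deposited coordinates 28 Sox9 tags against 2, a ratio of 14.6 (3.68 to 126). The window was displaced by −8500 bp, and all alternative windows gave −8550 or −8500 bp. After the move the Bapx1 peak fell on another Sox9 peak, deposited at chr19:32672270-32672779 with 53 tags and a false discovery rate of 1.12%, whose summit then lay 81 bp from that of Bapx1. In the moved Bapx1 peak the Sox9 library held 49 tags and IgG 3, a ratio of 17.0 (5.50 to 85.4).

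The Sox9 peak that overlapped as deposited, with 34 tags, moved to 8389 bp downstream of the Bapx1 summit. A second Bapx1 peak of 13 tags lies there, at chr19:32689684-32689893, with its summit 8683 bp from the first. The Sox9 summit then lay 294 bp from this second summit and the peaks were 75 bp apart without sharing a base. In this second Bapx1 peak 12 Bapx1 tags stood against 1, a ratio of 9.996 (1.48 to 427). After the move it held 2 Sox9 tags and 0 of IgG, too few for a ratio. The overlap of the deposited peaks upstream of Papss2 thus joined different positions of the aligned pattern, in a region where the distance of 8683 bp between the Bapx1 peaks is close to the displacement.

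**Figure D3:**
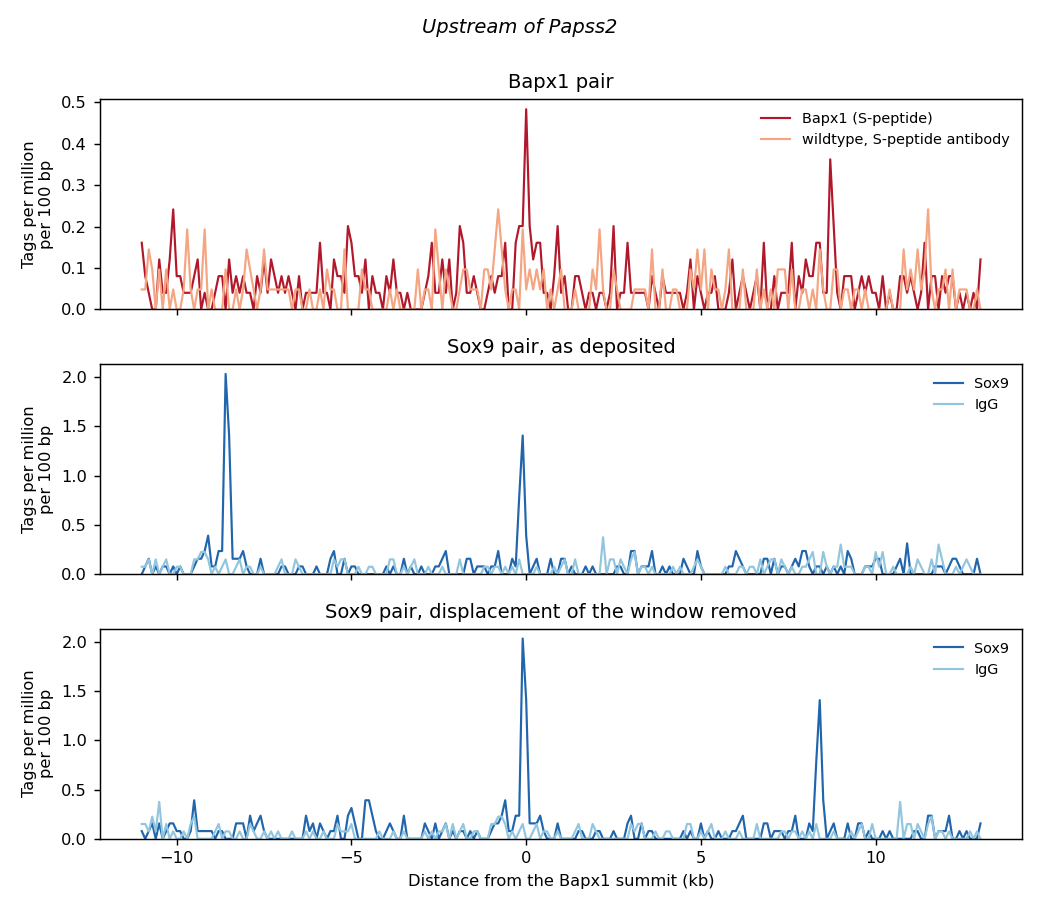
Tags in 100-bp bins, scaled to the size of each library (y axis) against the distance from the Bapx1 summit upstream of Papss2 in kb (x axis), for Bapx1 and its wildtype control (top), for Sox9 and IgG as deposited (middle) and for Sox9 and IgG with the displacement of −8500 bp removed (bottom). After the move the Sox9 peak of 53 tags lies at the first Bapx1 peak, that of 34 tags lies next to the second, and a weaker one of 13 tags lies to the left of both.

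Limch1 encodes a protein with LIM and calponin homology domains that acts on non-muscle myosin. Its 78 shared bases held 4 tags of Bapx1 and 4 of the control, a ratio of 0.833 (0.155 to 4.47), and 1 tag each of Sox9 and IgG. The direction for Bapx1 turned with the placement of the tags: counted at the middle of the deposited tag it was 5 against 1, a ratio of 4.16 (0.466 to 197), and with 5′ ends moved by 38 bp in place of 100 bp it was 7 against 2, a ratio of 2.92 (0.555 to 28.8). Within 200 bp of the Bapx1 summit, where TAAGTG is found, Bapx1 held 17 tags against 5, a ratio of 2.83 (1.003 to 9.82). The window was displaced by −112100 bp. After the move the Bapx1 peak held 4 Sox9 tags against 2 of IgG, and the Sox9 peak that overlapped as deposited lay 111986 bp away. The nearest Sox9 summit after the move was at 24708 bp, with 40 tags and a false discovery rate of 1.6%. Around that summit Sox9 held 39 tags against 2, a ratio of 20.3 (5.26 to 174), and Bapx1 held 19 against 3, a ratio of 5.28 (1.55 to 27.8), although no Bapx1 peak was listed there. How often Bapx1 reaches such a ratio over all Sox9 summits is not given here, for Limch1 or for the Sox9 summits of Slc25a13, Iyd and Lrig3.

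Lrig3 encodes a membrane protein with leucine-rich repeats and immunoglobulin domains. Its 56 shared bases held no Bapx1 tag against 3 of the control and 2 Sox9 tags against 1. Within 200 bp of the Bapx1 summit Bapx1 held 20 tags against 8, a ratio of 2.08 (0.879 to 5.47), the lowest of the group in that window. The window was displaced by −34100 bp, and in the moved Bapx1 peak 5 Sox9 tags stood against 1, a ratio of 5.21 (0.583 to 247). The nearest Sox9 summit after the move was at 576 bp, in a peak of 18 tags with a false discovery rate of 88.4%. Around it Bapx1 held 23 tags against 7, a ratio of 2.74 (1.14 to 7.55), and Sox9 held 17 against 5, a ratio of 3.55 (1.26 to 12.3). A stronger Bapx1 peak with 33 tags, at chr10:125349260-125349618, lay between this site and Lrig3, and its moved position held 9 Sox9 tags against 4.

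Armc5 encodes an armadillo-repeat protein, and its site is the start of the neighbouring 9130023H24Rik. It held 23 Bapx1 tags against 4, a ratio of 4.79 (1.64 to 19.1), and as deposited 33 Sox9 tags against 11, a ratio of 3.13 (1.54 to 6.86). No shift within 4000 kb was clear. With shifts of up to 10000 kb the window was displaced by −7352350 bp, and the window around the Sox9 peak gave −7353350 bp. After the move the Bapx1 peak held 4 Sox9 tags against 6 of IgG, a ratio of 0.695 (0.144 to 2.93), and the shared interval 3 against 5, a ratio of 0.626. These counts are for −7352350 bp, and no counts at −7353350 bp are given here. The Bapx1 peak held 39 CpG dinucleotides at a GC content of 61.4%, the highest GC content of the 10, the others ranging from 39.9% to 53.3%. At the shift of −7352350 bp the nearest Sox9 summit lay 173468 bp from the Bapx1 summit, and the deposited overlap at Armc5 was not present.

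**Figure D4:**
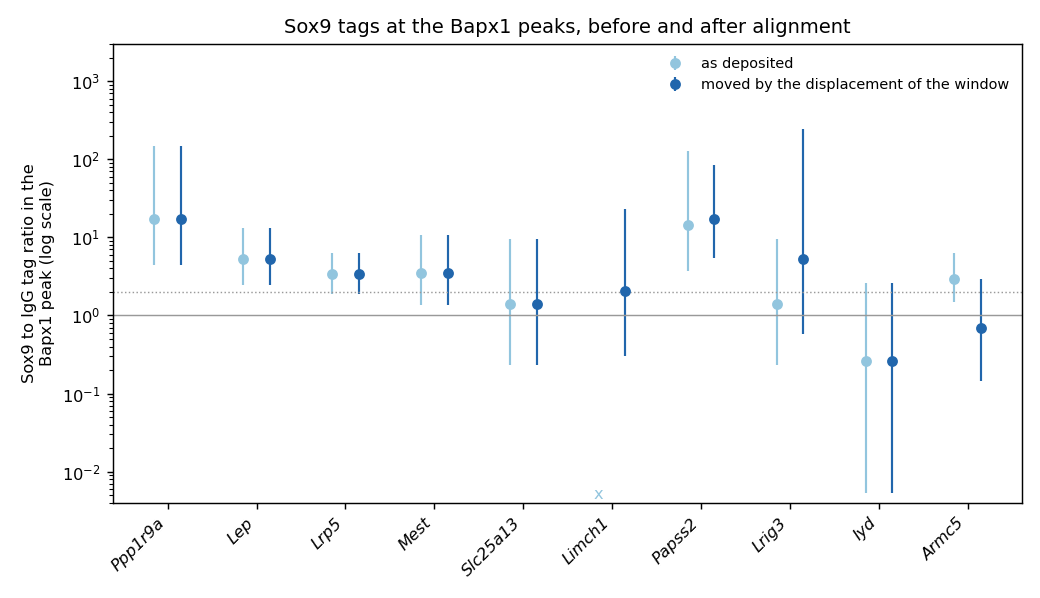
Ratio of Sox9 to IgG tags in the Bapx1 peak of each member (y axis, log scale), as deposited (light blue) and after the peak was moved by the displacement of its window (dark blue). Bars are 95% counting intervals, the solid line marks 1 and the dotted line 2, and x marks a pair of counts too low for a ratio. Ppp1r9a and Papss2 are highest after the move, at 17.2 and 17.0, while Iyd and Armc5 lie below 1 after the move, at 0.261 and 0.695. The peaks of Ppp1r9a, Lep, Lrp5, Mest, Slc25a13 and Iyd kept their deposited position, so both of their points show the same counts.

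Counted over the group, the ratio of Bapx1 to wildtype was at least 2 in the shared interval at 6 of the 10 members, and in the whole Bapx1 peak at all 10, where 96.4% of all embryo Bapx1 peaks passed. This is what the peak calling selected. The Sox9 to IgG ratio in the whole Bapx1 peak as deposited was at least 2 at 6 of the 10, Ppp1r9a, Lep, Lrp5, Mest, Papss2 and Armc5, beside 8.35% of all Bapx1 peaks, and in the shared interval it was so at the same 6. The rule used this contrast. In the Bapx1 peaks moved by the displacement, 7 of the 10 members passed (Ppp1r9a, Lep, Lrp5, Mest at its deposited position, Limch1, Papss2 and Lrig3), beside 29.4% of all embryo Bapx1 peaks in clear windows. For Ppp1r9a, Lep, Lrp5 and Mest the position did not change, so their ratios are those that the rule used. Of the 4 members whose peak was moved, Papss2 had an interval above 1, those of Limch1 and Lrig3 spanned 1, and Armc5 did not pass. In displaced windows the share of Bapx1 peaks that passed was 7.71% as deposited and 29.8% after the move, and in windows without displacement it was 21.4%.

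The V5-Bapx1 libraries of NIH3T3 were not used to choose the members. In the whole Bapx1 peak 2 of the 10 members had a ratio of at least 2, beside 22.9% of all embryo Bapx1 peaks. They were Ppp1r9a and Armc5, as in the shared interval, where Armc5 held 9 V5-Bapx1 tags and no control tag, at least 4.20-fold higher against a floor of 3 counts. Within 200 bp of the Bapx1 summit Ppp1r9a, Armc5 and Iyd had a ratio of at least 2, the highest being 5.60 at Iyd. In the whole Bapx1 peak and in the shared interval the counts of Iyd were too low for a ratio. No share over all embryo Bapx1 peaks is given here for the window of 200 bp around the summit. Armc5 held 12 tags against 4 there, a ratio of 4.20 (1.27 to 17.9), and was the sole member with an interval above 1. Limch1 and Papss2 held no V5-Bapx1 tag in that window against 4 control tags each. Over the 10 shared intervals the V5-Bapx1 counts ran from 0 to 9 and the control counts from 0 to 5, so differences at single sites were mostly not detectable at this depth.

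**Figure D5:**
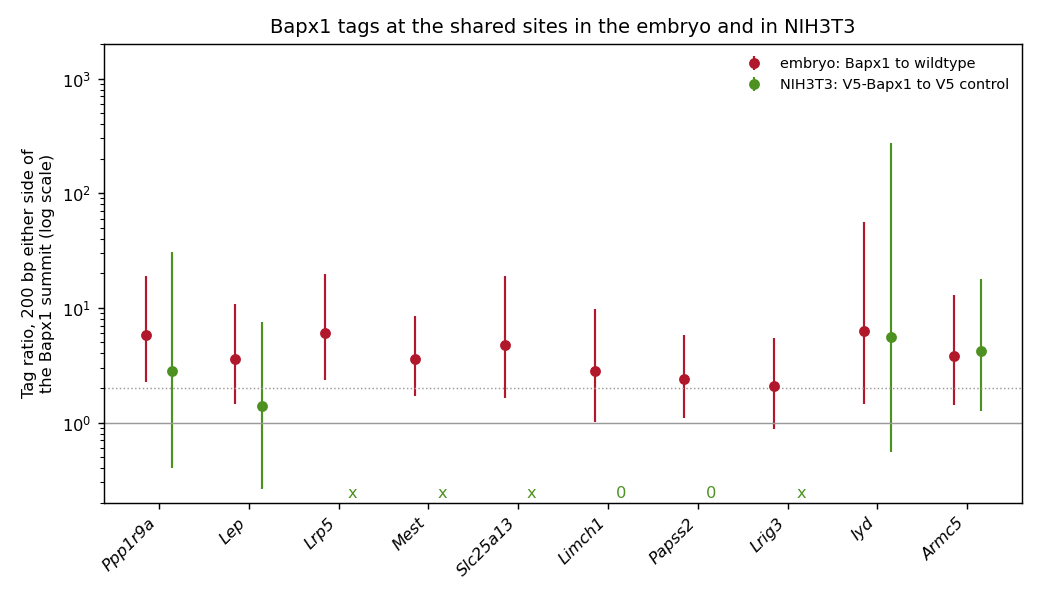
Tag ratio within 200 bp of the Bapx1 summit (y axis, log scale) for Bapx1 against wildtype in the embryo (red) and V5-Bapx1 against the V5 control in NIH3T3 (green). Bars are 95% counting intervals, the solid line marks 1 and the dotted line 2, x marks counts too low for a ratio and 0 marks no V5-Bapx1 tag. All embryo ratios are at least 2.08, and in NIH3T3 the interval of Armc5 alone lies above 1.

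None of the 10 Bapx1 peaks overlapped any of the 23205 NIH3T3 peaks, where 6.39% of all embryo Bapx1 peaks did. Every member had an NIH3T3 peak in its gene body and 100 kb on either side, as did 81% of all protein-coding genes. In all 37 such peaks were found, from 1 to 7 per member, beside a mean of 2.73 and a median of 2 over all genes. Gene length was not matched. The motif was within 50 bp of the summit in 22 of the 37, 59.5%, beside 64.4% of the whole NIH3T3 list. The median distance of a member's site to the nearest NIH3T3 summit was 34061 bp, beside 31087 bp over all embryo Bapx1 peaks.

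The closest NIH3T3 peak was that of Armc5, chr7:135382328-135382695, with 15 tags and the motif, its summit 1143 bp from the site. A second embryo Bapx1 peak of the same gene, chr7:135382477-135382754 with 17 tags, overlapped it. At Ppp1r9a the nearest NIH3T3 summit was at 6358 bp, at Papss2 at 10086 bp and at Lep at 11162 bp. By tags the strongest NIH3T3 peak near any member was that of Lrp5, chr19:3720196-3720614, with 56 tags at rank 92 of the list and with the motif, and it lay 78378 bp from the embryo site. The second was in the Slc25a13 region, with 38 tags.

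Related genes were counted for their peaks in the gene body and 100 kb on either side. They were the paralogues Ppp1r9b, Lrp6, Lrp4, Slc25a12, Lmo7, Papss1, Lrig1 and Lrig2, the leptin receptor Lepr, and the genes Copg2, Klf14, Cpa4, Sgce, Peg10 and Asb4 of the imprinted neighbourhoods of Mest and Ppp1r9a. An embryo Bapx1 peak was found at 6 of the 15, beside 25.2% of protein-coding genes, and an NIH3T3 peak at all 15, beside 81%. As deposited, Sox9 peaks were found at 7 of the 15, beside 28.3%. Copg2 is not a separate case, since the peaks of both factors in its region are those of the Mest region, the Mest site among them. Without Copg2, Bapx1 peaks were found at 5 of 14 and Sox9 peaks at 6 of 14, and as deposited Lrp6 had peaks of both factors. The windows of these 14 were clear, and after the move by the displacement Sox9 peaks were found at 8, beside 29.7% of protein-coding genes in clear windows. Lepr, Lrp6 and Papss1, 3 of the 14, then had peaks of both factors, beside 11.4%. Lrp6, which like Lrp5 encodes a Wnt co-receptor, had 2 Bapx1 peaks and, both as deposited and after the move by the displacement, 4 Sox9 peaks. No Bapx1 peak was within 100 kb of Sgce, Peg10 or Asb4, the imprinted neighbours of Ppp1r9a.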

How the data were processed

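Per the study's methods, single-end reads were mapped to mm9, and the authors kept uniquely mapped reads with at most 2 mismatches. The authors deposited the position of each 35-bp tag, and lists of peaks from MACS (1.4.0 beta, p cutoff 1e-05). The lists give, per the file headers, the count of tags in each peak, a score of −10 times log10 of p, a ratio of tags to those the local background predicts (fold enrichment), and the false discovery rate in percent.

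The counts given here were made from the deposited tags, 1 per position and strand, on chromosomes 1 to 19, X and Y (24853758 for Bapx1, 20702403 for wildtype, 12784158 for Sox9, 13329191 for IgG, 8901095 for V5-Bapx1 and 12453788 for V5 control). No position was repeated in the embryo libraries, and 2.36% and 6.53% of the NIH3T3 tags were. The 5′ end was moved 100 bp along the strand, and ratios were scaled to these totals. The authors' MACS runs gave a fragment length of 77 bp for Bapx1, 87 bp for Sox9 and 124 bp for V5-Bapx1. The move of 100 bp is longer than the fragments of both embryo pairs, and the alternative moves of 38, 43 and 62 bp were set from these lengths. At the shared interval of Papss2 the Sox9 to IgG ratio was 14.6 with 100 bp and 28.2 with 43 bp. No ratio was formed where both counts were at most 3. The displacement was measured by the correlation of tags in 50-bp bins, with at most 3 per bin and with 2000 bp around the best match left out. Shifts of up to 4000 kb were planned, and within these 2494 windows were displaced and 209 unclear. The counts of window classes, the moved peaks and the moved tag counts given here use shifts of up to 10000 kb. Positions were not converted between builds. Shifts within 100 bp counted as no displacement. Genes and sequence are those of mm9 (NCBIM37) and its GENCODE annotation. Python 3.11.15 with numpy 2.4.6, scipy 1.17.1 and pysam 0.24.0 was used, and the functions were tested on simulated data.

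The members and lists were chosen with earlier results of these data known. The genes named are the members, the related genes, and the gene that holds each shared interval or has the nearest TSS.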

Additional observations from a re-analysis of the deposited data

How the results depend on the processing

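With the whole Bapx1 peak, or 200 bp on either side of its summit, the number of members with a Bapx1 ratio of at least 2 rose from 6 to 10. With 200 bp on either side of the Sox9 summit the Sox9 count rose from 6 to 10. With all NIH3T3 tags as deposited the V5 count fell from 2 to 1, because Ppp1r9a, with 4 tags against 3, then had a ratio of 1.95. The 13 overlapping Bapx1 peaks became 8 when 50% of the shorter peak had to be shared, 4 with a p of at most 1e-10 in both lists, 6 with Sox9 peaks at a false discovery rate of at most 5%, and 246 after moving by the displacement. Of the members, 6, 3, 5 and 6 were still among them, in the same order. Of the last 6, all but Papss2 were in windows without displacement and kept the position that the rule used. NIH3T3 peaks near the members rose from 37 to 58 with 200 kb on either side, where the mean per gene over all genes rose from 2.73 to 4.81. The Sox9 ratio of Armc5 reversed to 0.626 in the moved interval and 0.695 in the moved Bapx1 peak. Windows around the Sox9 summit, tags moved by 38, 43 or 62 bp, the wider shifts, the 500-kb windows that end or begin at the interval and the moved peaks were chosen after seeing the data. The other alternatives kept each count within 1.5 times. No paired analysis was possible because each condition has 1 library. For the same reason no replicate could be left out.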
